A study of Homo sapiens with 15 samples.

Results

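The genes described here encode 7 secreted proteins of the extracellular matrix that are not collagens: TNC (ENSG00000041982), FN1 (ENSG00000115414), POSTN (ENSG00000133110), CTHRC1 (ENSG00000164932), SPON2 (ENSG00000159674), VCAN (ENSG00000038427) and CEMIP (ENSG00000103888). They were chosen by name because each appears in at least 1 of the 4 deposited tables, which together hold 4872 genes. The tables list only genes that the authors called different from the PD45 control, so the values that chose these genes are given below as a description, with no test. The data are RNA sequencing of WI-38 cells, a human fetal lung fibroblast line that stops dividing after repeated passage, in 15 libraries that form 5 groups of 3.

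PD is read as population doublings, which the labels write as cell generations. The GW8510 group is PD45 cells with the kinase inhibitor GW8510, lipo3000 (read as a lipofection reagent) and NC (read as a negative-control siRNA). The siSRC2 and siSRC4 groups are PD45 cells with DMSO, lipo3000 and siSRC, read from the sample names as 2 siRNAs against SRC. The PD30 control received DMSO and lipo3000. The PD45 control received DMSO, lipo3000 and NC. PD45 cells are described as senescent. The PD30 and PD45 controls also differ in NC, and the GW8510 group and the PD45 control also differ in DMSO, so these differences cannot be told apart from passage and compound. Neither dose nor duration of GW8510 is in the labels. The labels do not tie the 3 libraries of a group to different cultures.

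Matricellular proteins are secreted into the matrix but act mainly on cell adhesion and signalling. Fibronectin (FN1) is assembled by cells into fibrils through integrins, and tenascin C (TNC) and periostin (POSTN) bind to that network and to integrins. Both are low in most resting adult tissue and rise in wound repair and fibrosis. CTHRC1 encodes a secreted glycoprotein of activated fibroblasts, and SPON2 encodes spondin 2 (mindin), a matrix protein of the F-spondin family. VCAN encodes versican, a large chondroitin sulfate proteoglycan that binds hyaluronan, and CEMIP encodes a protein needed for hyaluronan breakdown in fibroblasts.

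The promoters of 4 of the 5 genes listed lower with GW8510 are shown because those genes shared that direction. CTHRC1, which shared it too, was left out of the search. Each run holds the 250 bases before the RefSeq start, 5′ to 3′ on the gene's strand, from build GRCh38.p14. Promoters of the RefSeq table were matched by symbol, and 6 of the 7 genes were searched. Capitals mark exact matches, on either strand, to any of 7 motifs. The AP-1 motif was searched as TGANTCA and the cyclic AMP response element (CRE) as TGACGTCA. The SMAD motif was searched as CAGACA, and the TEAD motif of the YAP pathway as GGAATG. The STAT motif was searched as TTCNNNGAA, the TATA box of core promoters as TATAAA, and the E-box of helix-loop-helix factors as CACGTG.
TNC: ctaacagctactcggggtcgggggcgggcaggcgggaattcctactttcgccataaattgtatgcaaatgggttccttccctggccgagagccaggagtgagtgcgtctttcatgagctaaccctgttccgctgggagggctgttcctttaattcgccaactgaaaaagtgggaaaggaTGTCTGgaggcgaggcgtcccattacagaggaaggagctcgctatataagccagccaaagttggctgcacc
FN1: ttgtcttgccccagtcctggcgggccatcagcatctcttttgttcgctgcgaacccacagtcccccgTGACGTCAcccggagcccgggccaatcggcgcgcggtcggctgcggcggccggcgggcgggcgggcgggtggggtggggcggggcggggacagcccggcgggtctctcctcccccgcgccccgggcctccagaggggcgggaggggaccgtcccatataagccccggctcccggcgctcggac
POSTN: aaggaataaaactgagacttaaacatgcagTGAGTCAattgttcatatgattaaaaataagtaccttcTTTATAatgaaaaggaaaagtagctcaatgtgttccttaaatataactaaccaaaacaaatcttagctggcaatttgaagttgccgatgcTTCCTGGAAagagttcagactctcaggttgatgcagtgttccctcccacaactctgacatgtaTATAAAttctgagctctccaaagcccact
CEMIP: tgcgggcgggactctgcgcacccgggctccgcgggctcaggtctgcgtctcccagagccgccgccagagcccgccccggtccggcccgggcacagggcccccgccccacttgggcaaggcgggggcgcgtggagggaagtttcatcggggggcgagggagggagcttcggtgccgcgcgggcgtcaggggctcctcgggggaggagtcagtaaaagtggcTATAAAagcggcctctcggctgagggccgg

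These runs are chr9:115118158-115118407 on the minus strand for TNC, chr2:215436069-215436318 on the minus strand for FN1, chr13:37598769-37599018 on the minus strand for POSTN and chr15:80779120-80779369 on the plus strand for CEMIP. No motif was found as exact letters in all 4 windows. TATA letters began at -29 before the POSTN start and at -30 before the CEMIP start, and 10.7% of 35091 RefSeq promoter windows of the same length hold them. POSTN had a second TATA match, at -182. The TNC and FN1 windows hold tataag near their right ends, which differs from TATAAA in its last letter, so the exact search leaves it unmarked. The FN1 window held a CRE at -183, which 1.65% of windows hold. The POSTN window held an AP-1 match at -220 and a STAT match at -92, each of a motif found in 6.57% of windows. The TNC window held 1 SMAD match at -71, a motif in 13.6% of windows. The GC content of the windows was 36.4% for POSTN, 54.8% for TNC, 74.4% for CEMIP and 76.4% for FN1, against a median of 58.0% over all windows. A match describes letters and is not a measured binding site.

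The values are the authors' normalized signal, whose unit the file headers do not name, so levels of different genes are not compared. Read depth per library is unknown, and no counting interval is given. Of the 7 genes, 5 were listed for GW8510, all lower, where 11.8% of the genes the authors tested were listed, 4.59% higher and 7.26% lower. For siSRC2 2 were listed, both higher (2.64% of tested genes listed, 1.38% higher and 1.26% lower), and for siSRC4 POSTN alone was listed, lower (8.77% of tested genes listed, 3.91% higher and 4.86% lower). For PD30 3 were listed, all higher (15.3% of tested genes listed, 8.24% higher and 7.07% lower). These counts were fixed by how the genes were chosen. In all 11 pairs of gene and table no library overlapped between group and control. The same held for 90.6% of all genes listed for GW8510, 90.6% for siSRC2, 88.8% for siSRC4 and 93.6% for PD30. Absence from a table does not show that a gene stayed the same.

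SRC, the gene targeted by the siRNAs, stood at 57.0% of the PD45 control mean with siSRC2 and at 54.6% with siSRC4. Of 12 fibroblast markers 5 were listed for PD30 (41.7%, against 15.3% of all genes tested), 4 higher and 1 lower. VIM had a signal of 5407 ± 219 at PD30 and 3225 ± 104 in the PD45 control (SD, n = 3), and COL6A3 and COL3A1 were 2.41-fold and 3.28-fold higher at PD30. S100A4 went the other way, with a signal of 94.2 ± 10.8 at PD30 and 448 ± 27.3 in the PD45 control. Among markers of other cell types, the epithelial keratin KRT19 had a mean signal of 235 with GW8510, 73.6 with siSRC2, 31.5 at PD30 and 135 in the PD45 control, and KRT8 and KRT18 were 1.94-fold and 1.64-fold lower at PD30. The macrophage marker CD68 had a mean signal of 28.1 with GW8510 and 48.0 in the PD45 control. The pericyte marker RGS5 was 3.32 with GW8510, 6.44 with siSRC4, 1.53 at PD30 and 9.80 in the PD45 control. Of the 6 endothelial markers TEK alone was listed, with a mean signal of 12.5 with siSRC2, 29.7 at PD30 and 7.39 in the PD45 control. These are the only listed markers of the GW8510, siSRC2 and siSRC4 tables besides the fibroblast genes named further on and CLDN4, and the part of such cells in the results was not tested.

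**Figure D1:**
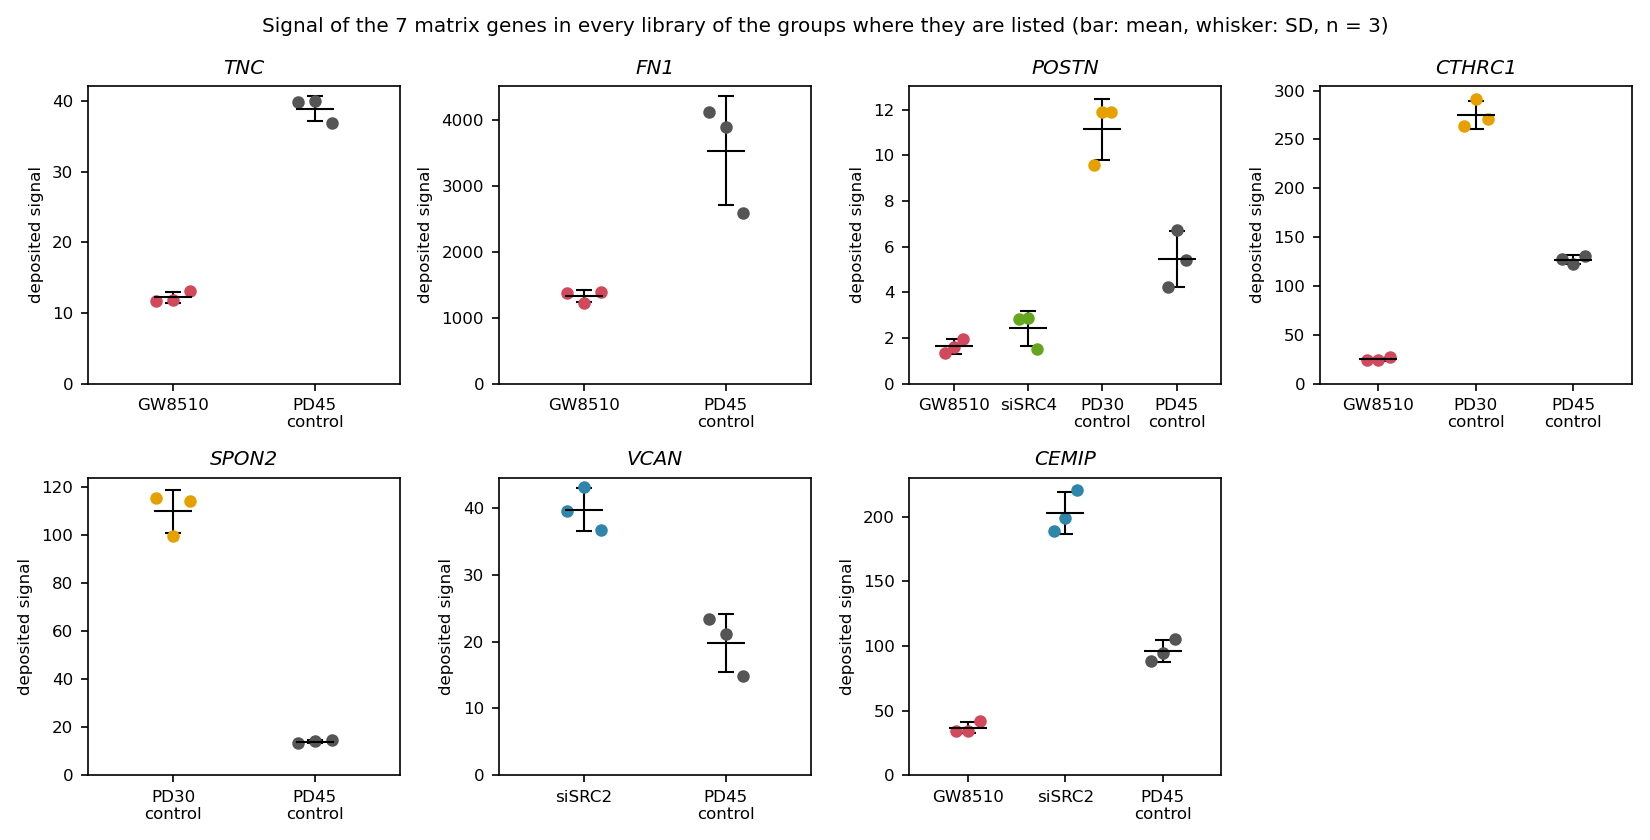
Deposited signal of each of the 7 genes (vertical axis, from 0, own scale per gene) in every library of the groups whose table lists it, with the PD45 control at the right of each panel; points are libraries, bars are means and whiskers SD (n = 3). No group overlaps its PD45 control, and POSTN, CTHRC1 and CEMIP have listed groups on both sides of it.

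The first comparison asks what GW8510 changes in senescent PD45 cells. CTHRC1, TNC, POSTN, FN1 and CEMIP were all listed lower with GW8510, at 19.6% to 38.1% of the PD45 control mean. In bulk RNA, fewer cells of a type and less RNA per cell cannot be told apart. Ratios of signals in this table lie below the authors' fold changes by a median of 0.12 on the log2 scale, so the authors' value is given beside each of these genes. Folds of other genes in this comparison are ratios of signals, to which the same median offset applies. By that offset they run small for genes listed higher and large for genes listed lower.

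FN1, the main adhesive glycoprotein of the set, had signals of 1369, 1217 and 1390 with GW8510, against 4109, 3892 and 2589 in the PD45 control. The GW8510 libraries lay close together, and 1 control library was well below the others. The ratio of means was -1.41 on the log2 scale, 2.66-fold lower, and the authors' deposited table gives -1.30. The control libraries had a coefficient of variation of 23.3%, against 7.14% with GW8510. PD45 control replicate 3 stood at 0.647 of the mean of replicates 1 and 2 for FN1, where the median over 3950 listed genes was 0.92 and the 5th percentile 0.621. Without that library the FN1 ratio was -1.59.

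TNC, which encodes an anti-adhesive partner of fibronectin, had signals of 11.7, 11.9 and 13.1 with GW8510, against 39.9, 40.0 and 36.9 in the PD45 control. The groups were well apart, and the nearest libraries were 2.82-fold apart. The log2 ratio of means was -1.67, and -1.58 in the authors' deposited table.

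CTHRC1 had signals of 24.1, 23.7 and 26.8 with GW8510, against 128, 122 and 131 in the PD45 control. Its log2 ratio of -2.35 was the largest in size of the 5 genes, with the nearest libraries 4.56-fold apart. The authors' deposited table gives -2.18. Among the 1130 genes listed lower, CTHRC1 ranked 45 by the size of the authors' log2 fold change, POSTN 92, TNC 112, CEMIP 192 and FN1 195.

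POSTN, a ligand of integrins in the repairing matrix, had signals of 1.33, 1.59 and 1.96 with GW8510, against 4.23, 6.71 and 5.43 in the PD45 control. The groups did not overlap, and the control libraries spread by 22.7% around their mean. The log2 ratio was -1.75, and -1.70 in the authors' deposited table. At these low signals the ratio depends on how zero is approached, and with 1 added to each signal it was -1.29.

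CEMIP, which acts in the breakdown of hyaluronan, had signals of 34.2, 33.9 and 41.6 with GW8510, against 88.2, 94.7 and 105 in the PD45 control. All treated libraries were below all control libraries by at least 2.12-fold. The log2 ratio was -1.39, and -1.30 in the authors' deposited table.

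Over the whole GW8510 table, listed genes differed in transcript composition by direction. Genes listed lower had a median GC content of 41.7% and a median length of 4522 bases in their longest coding transcript, and genes listed higher had 55.7% and 2678 bases. The 5 matrix genes ranged in GC content from 39.0% (POSTN) through 44.8% (CTHRC1), 50.2% (FN1) and 53.1% (CEMIP) to 54.0% (TNC). Their lengths were 3373 bases for POSTN, 1271 for CTHRC1, 8905 for FN1, 7357 for CEMIP and 7641 for TNC. The part of composition and length in these values was not tested.

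**Figure D2:**
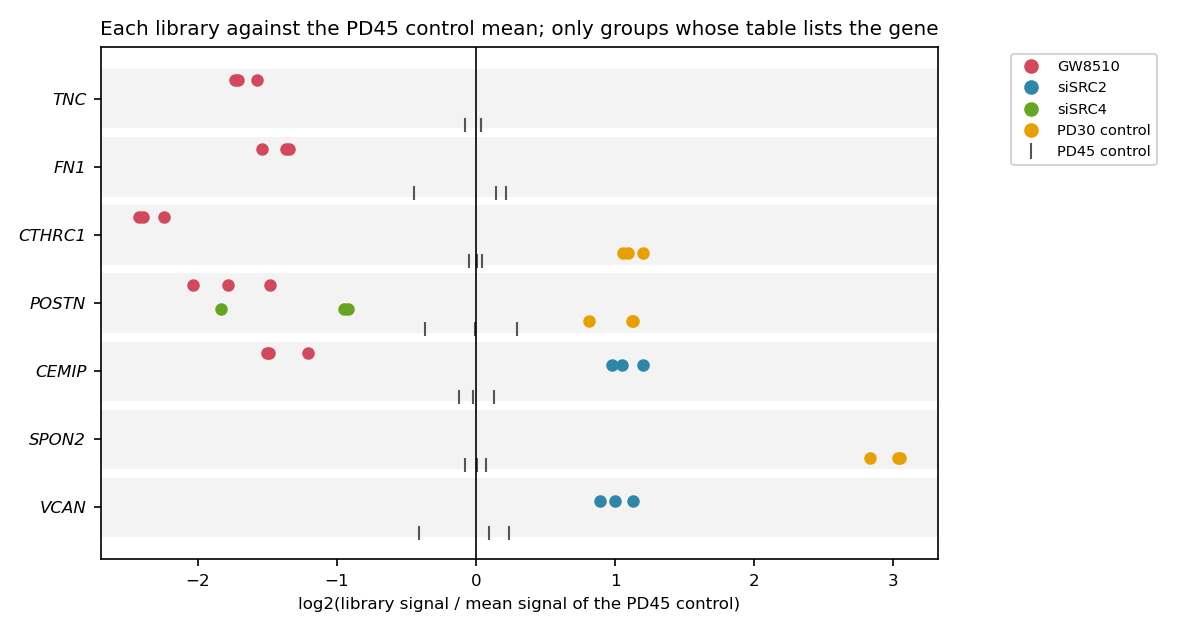
Log2 of each library's signal over the mean of the 3 PD45 control libraries (horizontal axis) for the 7 genes, 1 row a gene, with dots for libraries of listed groups and ticks for PD45 control libraries. The 5 genes listed for GW8510 lie left of the control, the siSRC2 and PD30 dots lie right of it, and the siSRC4 dots of POSTN lie left.

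Among genes whose products work with these proteins, 3 of 17 receptor genes were listed for GW8510, all lower (17.6% of the list, where 11.8% of all genes tested were listed and 7.26% listed lower). Their median log2 fold change in the authors' deposited table was -1.15, against -0.81 over all genes listed lower with GW8510. Here and below, list shares are over all genes of a list. How many of them the authors tested is unknown, so these shares and those of all tested genes are not like for like. ITGA8 encodes an integrin subunit that binds fibronectin, tenascin C and related ligands. Its signal was 2.12, 1.94 and 2.19 with GW8510, against 13.5, 10.1 and 9.45 in the PD45 control, a 5.30-fold lower mean. ITGB3, a subunit of an integrin for fibronectin and periostin, was 2.41-fold lower at 6.18 ± 0.744 with GW8510 and 14.9 ± 0.841 in the PD45 control (SD, n = 3). ITGB5, a subunit that pairs with the alpha V integrin chain, was 1.68-fold lower.

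The other matrix genes went both ways. The lists of matricellular, elastic fibre, basement membrane, proteoglycan and hyaluronan genes hold 86 genes. Of these, 11 were listed for GW8510 (12.8%, against 11.8% of all genes tested), 7 higher and 4 lower. NID2, the basement membrane linker nidogen 2, was 2.01-fold higher (338 ± 38.2 with GW8510 and 168 ± 22.9 in the PD45 control). FSTL3, a secreted binder of activin, was 1.85-fold higher, and HAPLN3, a link protein that ties proteoglycans to hyaluronan, was 1.75-fold higher. HYAL3, of the hyaluronidase family, was 1.45-fold higher by signals, with a log2 fold change of 0.67 in the authors' deposited table, which set the listing. LTBP2, a microfibril protein, was 1.93-fold lower, at 21.7 ± 1.56 with GW8510 and 41.8 ± 8.82 in the PD45 control. The remaining genes listed higher were ELN, MFAP5 and HAS2, and those listed lower SMOC1, CCN4 and SPON1, all with mean signals under 5.

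Of the fibroblast markers, COL3A1 was 1.76-fold higher with GW8510 and FAP, a surface protease of activated fibroblasts, was 1.99-fold lower (24.2 ± 1.26 with GW8510 and 48.0 ± 2.53 in the PD45 control). Of 21 TGF-beta signalling genes 4 were listed (19.0%, against 11.8% of all genes tested). Their median log2 fold change in the authors' deposited table was 0.93. BAMBI, a decoy receptor that dampens TGF-beta signals, was 1.98-fold higher, TGFBR3, a co-receptor, 1.51-fold higher, and SMURF2, a ubiquitin ligase for the receptor and its SMADs, 1.76-fold lower. The ligand gene TGFB3, with mean signals under 5, was the other one listed higher.

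**Figure D3:**
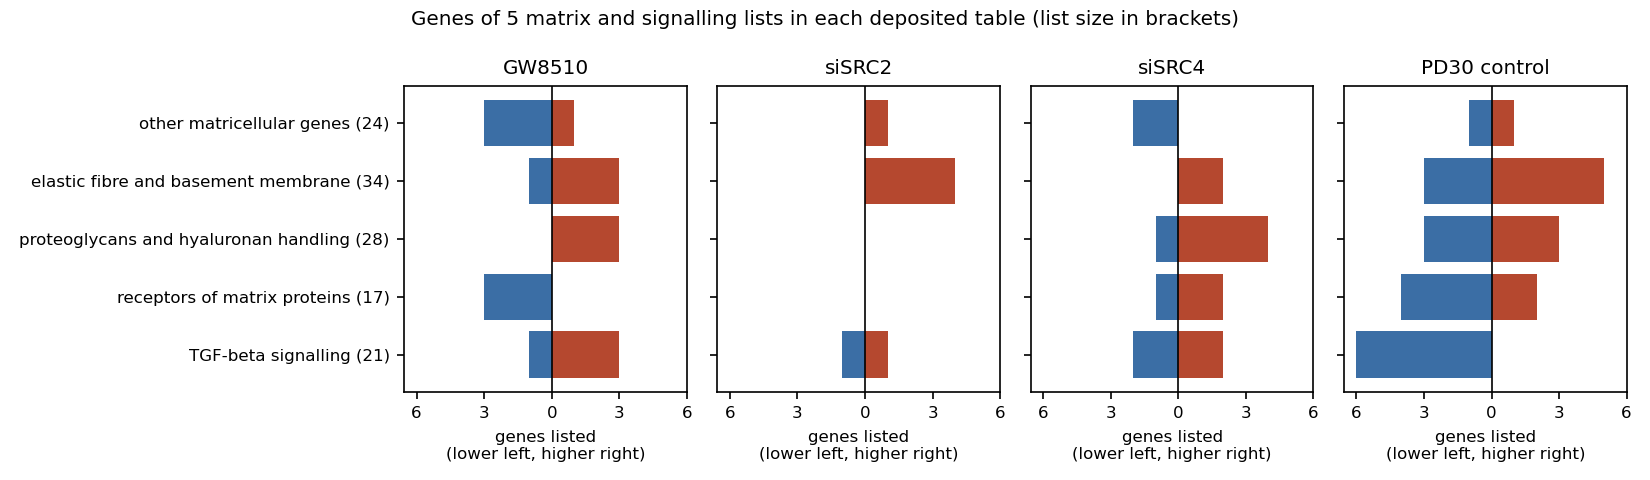
Number of genes of 5 lists (rows, with list size) that each deposited table names as higher (right of 0) or lower (left of 0) than the PD45 control, 1 panel a group. For GW8510 the 3 receptor genes are all lower while 7 of the 11 other matrix genes are higher, and for PD30 the 6 TGF-beta signalling genes are all lower.

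The comparison of siSRC2 with the PD45 control asks what knockdown of SRC does at PD45. CEMIP and VCAN, both tied to hyaluronan, were listed higher with siSRC2. None of the 28 genes in the list of other proteoglycans and hyaluronan handling was listed for siSRC2. Only 2.64% of all genes tested were listed for siSRC2, so little can be read from that count. CEMIP had signals of 189, 199 and 221 with siSRC2, against 88.2, 94.7 and 105 in the PD45 control, a log2 ratio of 1.08. VCAN had signals of 39.6, 43.2 and 36.7 with siSRC2, against 23.3, 21.2 and 14.9 in the PD45 control, a log2 ratio of 1.01. The knockdown libraries lay above every control library for both genes, by at least 1.80-fold for CEMIP and 1.57-fold for VCAN. The authors' deposited table gives log2 fold changes of 1.02 for CEMIP and 0.92 for VCAN.

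For VCAN the low control library was again PD45 control replicate 3, at 0.668 of the mean of the others. Without it the log2 ratio was 0.84. For CEMIP the same library was the highest, at 1.15 of that mean. Genes listed higher with siSRC2 had a median transcript length of 5163 bases and those listed lower of 2581 bases. The longest coding transcript of VCAN has 12625 bases and that of CEMIP 7357, and the part of length was not tested.

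Of the 86 other matrix genes 5 were listed for siSRC2, all higher (5.81% of the list, against 2.64% of all genes tested). Their median log2 fold change in the authors' deposited table was 0.82, against 0.73 over all genes listed higher with siSRC2. FBN1, the main microfibril protein fibrillin 1, was 1.58-fold higher (168 ± 10.8 with siSRC2 and 107 ± 17.2 in the PD45 control), and NID1, nidogen 1, was 1.59-fold higher. The others were LAMA2, TNXB and ELN, with mean signals under 5. PD45 control replicate 3 was again the lowest control library for FBN1 (87.7, against 121 and 111) and NID1 (16.5, against 23.2 and 22.1). It was also the lowest for LAMA2 and TNXB, but not for ELN. None of the 17 receptor genes was listed, where 2.64% of all genes tested were, so little can be read from that count. TGFBR1, the type I receptor of TGF-beta, was 1.73-fold higher, and TGFB3, with mean signals under 5, was listed lower. The fibroblast collagens COL3A1 and COL6A3 were 1.96-fold and 1.77-fold higher.

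With siSRC4, the other siRNA against SRC, POSTN was the 1 gene of the 7 that was listed. Its signals were 2.83, 2.88 and 1.53 with siSRC4, against 4.23, 6.71 and 5.43 in the PD45 control. The log2 ratio was -1.18, and -1.28 in the authors' deposited table. The nearest libraries of the groups were 1.47-fold apart, and siSRC4 replicate 3 was the low library. Neither CEMIP nor VCAN was listed for siSRC4 and POSTN was not listed for siSRC2. The authors' deposited tables thus hold no gene of the 7 for both siRNAs, and the difference between the siRNAs was not tested for any of them.

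Of the 86 other matrix genes 9 were listed for siSRC4 (10.5%, against 8.77% of all genes tested), 6 higher and 3 lower. CEMIP2, a cell-surface relative of CEMIP, was 1.89-fold higher (38.3 ± 3.17 with siSRC4 and 20.3 ± 1.19 in the PD45 control). LAMB2, a laminin chain, and FBLN2, fibulin 2, were each 1.56-fold higher, and HYAL3 was 1.62-fold higher. PD45 control replicate 3 was the lowest control library for LAMB2 (198, against 253 and 264) and FBLN2 (5.43, against 8.43 and 7.79). For HYAL3 it was the highest. Of the hyaluronan synthases, HAS2 was listed higher (0.903 with siSRC4 and 0.37 in the PD45 control) and HAS3 lower (1.07 and 1.72). PRELP, a small leucine-rich proteoglycan, was the sixth gene listed higher, and CCN4 was listed lower. HAS2, HAS3, PRELP and CCN4 all had mean signals under 5. CCN3, a matricellular protein of the CCN family, was listed lower at 1.98 with siSRC4 and 4.96 in the PD45 control. Among receptors, ITGA8 was 2.52-fold lower, and SDC1, a heparan sulfate co-receptor, and ITGB3 were 1.61-fold and 1.59-fold higher. In the TGF-beta list, LRRC32, which holds latent TGF-beta at the cell surface, was 2.78-fold higher. BAMBI was 2.27-fold lower and SMURF2 1.60-fold lower.

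The PD30 comparison addresses what distinguishes younger cells from senescent ones. SPON2, CTHRC1 and POSTN were listed higher at PD30. SPON2 had signals of 116, 99.7 and 114 at PD30, against 13.2, 14.0 and 14.7 in the PD45 control. The groups were separated by 6.80-fold between their nearest libraries, and the log2 ratio was 2.98, or 7.87-fold higher at PD30. The authors' deposited table gives 2.84, and by its p-value SPON2 ranked 4 of 2845 listed genes. By the size of the authors' log2 fold change it ranked 163 of the 1531 genes listed higher.

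CTHRC1 had signals of 264, 291 and 270 at PD30, against 128, 122 and 131 in the PD45 control, a log2 ratio of 1.12. POSTN had signals of 9.58, 11.9 and 11.9 at PD30, against 4.23, 6.71 and 5.43 in the PD45 control, a log2 ratio of 1.03. Both genes were thus near 2-fold higher at PD30, with the PD30 and PD45 libraries of POSTN only 1.43-fold apart at the nearest. The authors' deposited table gives 1.13 for CTHRC1 and 1.07 for POSTN. By that size CTHRC1 ranked 794 and POSTN 865 of the 1531 genes listed higher, whose median was 1.17.

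Of the 86 other matrix genes 16 were listed for PD30 (18.6%, against 15.3% of all genes tested), 9 higher and 7 lower. SRGN, the proteoglycan serglycin, was 9.86-fold lower at PD30 (2.32 ± 0.275 at PD30 and 22.9 ± 2.58 in the PD45 control). IGFBP7, a secreted binder of insulin-like growth factors, was 3.50-fold lower. HMMR, an intracellular spindle protein named as a hyaluronan receptor, was 7.76-fold higher, and CCN3 was 1.90-fold higher. LTBP4 and LTBP3, which bind latent TGF-beta, were 1.80-fold higher and 1.73-fold lower, and HSPG2, perlecan, was 1.70-fold lower. Of 17 receptors 6 were listed (35.3%, against 15.3% of all genes tested), 2 higher and 4 lower. Of all genes tested, 8.24% were listed higher and 7.07% lower. SDC1 was 2.65-fold and ITGA4 2.38-fold higher, while ITGA8 was 4.72-fold and ITGB3 1.95-fold lower.

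The TGF-beta list had 6 of 21 genes listed for PD30, all lower (28.6% of the list, against 15.3% of all genes tested). Their median log2 fold change in the authors' deposited table was -0.89, against -0.99 over all genes listed lower at PD30. TGFB2, a ligand, was 2.61-fold lower (2.40 ± 0.670 at PD30 and 6.26 ± 0.394 in the PD45 control). PMEPA1, a TGF-beta-induced feedback inhibitor, was 1.83-fold lower and SMURF2 1.96-fold lower. LRRC32 and TGFB3 were also listed lower, with mean signals under 5. The contractile genes ACTA2 and CNN1 were 1.77-fold and 1.71-fold lower at PD30.

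POSTN, CTHRC1 and CEMIP were each listed in more than 1 table, so their levels can be set in order. All these tables share the same 3 PD45 control libraries, whose values were identical wherever a gene was in 2 tables. For POSTN the mean signal was 1.63 with GW8510, 2.41 with siSRC4, 11.1 at PD30 and 5.46 in the PD45 control, so the PD30 cells were highest and both PD45 treatments lay below the control. For CTHRC1 it was 24.9 with GW8510, 275 at PD30 and 127 in the PD45 control. For CEMIP it was 36.5 with GW8510, 203 with siSRC2 and 96.0 in the PD45 control. GW8510 and PD30 thus lay on opposite sides of the PD45 control for CTHRC1 and POSTN, and GW8510 and siSRC2 did for CEMIP.

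Set directly against each other, GW8510 libraries were 11.1-fold below PD30 libraries for CTHRC1 and 6.84-fold below them for POSTN. On the log2(signal + 1) scale, which understates changes of low signals, the differences were -3.42 ± 0.09 for CTHRC1 and -2.21 ± 0.14 for POSTN (limma SE, 3 libraries each). For CEMIP, GW8510 libraries were 5.56-fold below siSRC2 libraries, a difference of -2.45 ± 0.12. For POSTN, siSRC4 libraries were 4.61-fold below PD30 libraries, a difference of -1.85 ± 0.19. Because each of these genes was listed on opposite sides of the same control, the sign of these differences was set by the listing, and no test is read from them. Genes called at an adjusted p under 0.05 made up 66.4% of the 512 fitted for GW8510 and PD30, 72.8% of the 92 for GW8510 and siSRC2, and 60.4% of the 374 for siSRC4 and PD30.

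Only for POSTN with GW8510 and siSRC4 was the order left to the data, since both were listed lower. The libraries overlapped, at 1.33, 1.59 and 1.96 with GW8510 and 2.83, 2.88 and 1.53 with siSRC4. The difference, GW8510 minus siSRC4, was -0.36 ± 0.20 on the log2(signal + 1) scale, with a 95% interval from -0.80 to 0.08 (limma, adjusted p = 0.205 over 291 genes in both tables). The two-sided exact permutation test gave p = 0.3, where 3 against 3 cannot go below 0.1. Of the 291 genes 34.7% were called, with a median difference of -0.18. The result rests on siSRC4 replicate 3, without which the difference was -0.56 (limma, adjusted p = 0.014). With each library scaled to the same median over those genes it was 0.007. All these fits and the permutation treated the libraries as unpaired. With same-numbered libraries as a block, the difference of -0.36 had a limma adjusted p of 0.204.

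**Figure D4:**
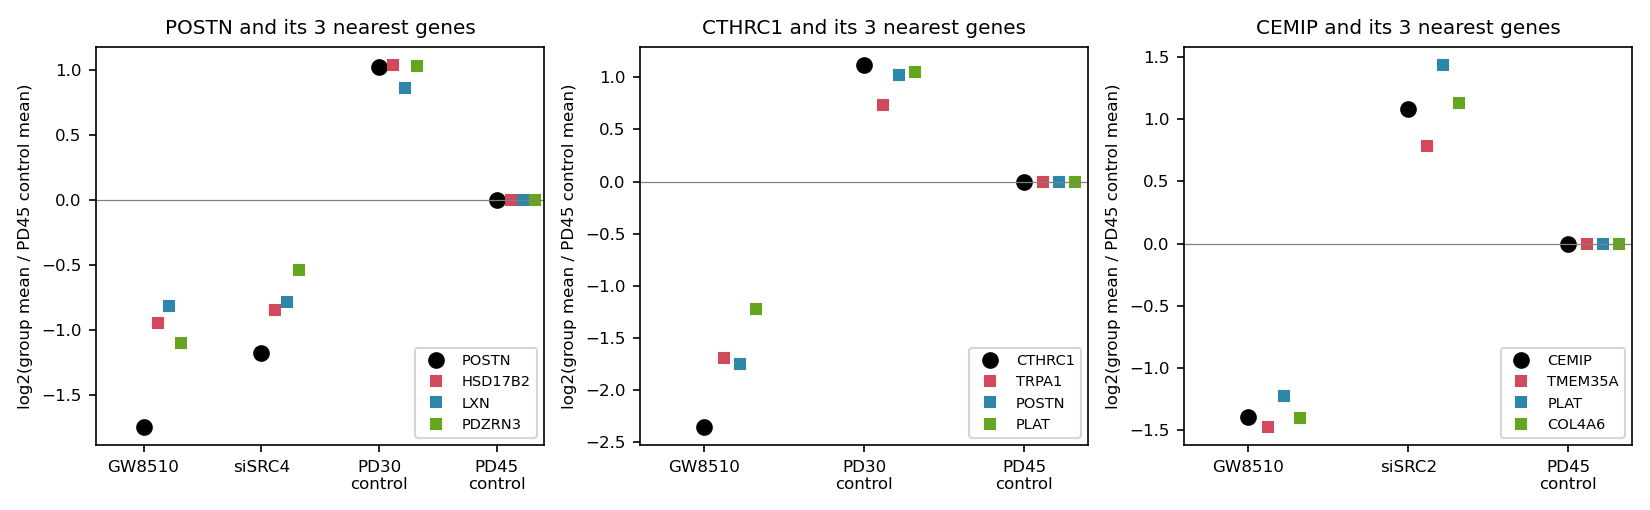
Log2 of the group mean over the PD45 control mean (vertical axis) for POSTN, CTHRC1 and CEMIP (black) and the 3 genes nearest to each (coloured squares, moved sideways for legibility), in the groups whose tables list all of them. POSTN lies below its neighbours with GW8510 and siSRC4, and by these ratios of means COL4A6 lies closest to CEMIP in both of its groups.

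The genes with the most similar pattern were found by the root mean square distance between log2(signal + 1) values, each taken relative to the PD45 control mean. The distance ran over the 9 libraries of GW8510, siSRC4 and PD30 for POSTN and over 6 libraries for the other genes. Nearest to POSTN among 76 genes in the same 3 tables were HSD17B2, a steroid dehydrogenase (0.35 log2 units), LXN, a carboxypeptidase inhibitor (0.37), and PDZRN3, a ubiquitin ligase (0.39). HSD17B2 had mean signals of 7.17 with GW8510, 7.68 with siSRC4, 28.4 at PD30 and 13.8 in the PD45 control.

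Nearest to CTHRC1 among 314 genes were TRPA1, a cation channel (0.63), POSTN itself (0.74) and PLAT, the tissue plasminogen activator (0.78). On this log2(signal + 1) scale the distances were larger than those of the nearest genes of POSTN and CEMIP. The scale understates changes of low signals, and the order of genes depends on it. By ratios of means POSTN (-1.75 with GW8510 and 1.03 at PD30) lay nearer to CTHRC1 (-2.35 and 1.12) than TRPA1 did. TRPA1 had mean signals of 5.48 with GW8510, 29.5 at PD30 and 17.7 in the PD45 control. Nearest to CEMIP among 57 genes in the GW8510 and siSRC2 tables were TMEM35A (0.29), PLAT (0.30) and COL4A6, a basement membrane collagen chain (0.31). PLAT had mean signals of 57.4 with GW8510, 362 with siSRC2, 278 at PD30 and 134 in the PD45 control. COL4A6 had mean signals of 1.80 with GW8510, 10.4 with siSRC2 and 4.76 in the PD45 control.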

How the data were processed

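RNA of 15 WI-38 libraries was extracted with Trizol and sequenced by standard Illumina protocols, per the labels. The tools in the submitters' processing notes, given without roles, are HISAT2, StringTie and RSEM beside CASAVA, edgeR and DESeq2, with the build GRCm38, a mouse assembly, although the identifiers are human. No coordinates were taken from the files. Per the file headers, each of the 4 tables holds the authors' fold ratio, log2 fold change, p-value and adjusted p-value, and the deposited signal of 3 libraries per group. All listed genes had an adjusted p under 0.05 and a fold of at least 1.5. Tables were matched to groups by library names: the table titled siSRC2 holds siSRC4 libraries and the one titled siSRC holds siSRC2 libraries. The number of genes the authors tested was read from the ratio of adjusted p to p in the first row.

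Means, SD and ratios were computed in Python 3.11.15 with pandas 2.3.3, and transcript length and GC content from the longest coding transcript of each gene in GENCODE 29. Pairs of groups other than the control were fitted with limma 3.58.1 (R 4.3.3) with a variance trend, using log2(signal + 1) of genes in both tables with a mean signal of at least 1, and adjusted by Benjamini-Hochberg. The fit was also run on simulated data, with independent noise of equal size for every gene and no selection by listing. Little about these libraries follows from that run. P-values measure the spread between libraries, which may be technical. The genes, lists and motifs were chosen with earlier results of these data known. Besides the 7 genes, the text names up to 4 listed genes per list and table with the largest ratio and a group mean of at least 5, and the 3 nearest genes of each gene in 2 or more tables. Listed genes named only as higher or lower with no fold, CCN3 with siSRC4 included, fall outside this rule and were named after their values were seen. A gene that the rule takes is not reported here. Alternatives were the pseudocount, the signal minimum, the trend, the control in the fit, scaling, single libraries left out and the replicate number as a block. For GW8510 and siSRC4, deviations of same-numbered libraries from their group means correlated across genes (0.31, 0.14 and 0.27 for numbers 1, 2 and 3), so the numbers were taken to pair these libraries, from the data and not from the labels. Among the same genes, correlations over 0.1 at every number were also found for siSRC4 with the PD45 control (0.23, 0.14 and 0.26), and among genes of the GW8510 and siSRC2 tables for siSRC2 with the PD45 control (0.18, 0.17 and 0.22). No test was run against that control. In the other 3 fitted pairs of groups at least 1 number fell under 0.1.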

Additional observations from a re-analysis of the deposited data

How the results depend on the processing

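Of 110 alternative values for the 11 ratios to the PD45 control, 108 moved by less than the spread between libraries and none changed sign. The exceptions were POSTN with GW8510, -1.29 with a pseudocount of 1, and CTHRC1 with GW8510, -2.18 in the authors' deposited table. Of the 110 values, 66 left out 1 of 3 libraries, which almost by construction moves a mean by less than that spread. No library overlapped between group and control, so leaving out libraries, medians or pseudocounts could not change a sign. Little can therefore be concluded from either count. With single libraries left out, the FN1 ratio ran from -1.59 to -1.29 and that of POSTN with siSRC4 from -1.33 to -0.94. At a fold of at least 2, the other matrix genes listed lower numbered 2 for GW8510, 1 for siSRC4 and 4 for PD30, and those listed higher 2 for siSRC2 and 3 for siSRC4. With a mean signal of at least 5, limma called 42 genes for GW8510 and siSRC2, 61 for GW8510 and siSRC4 and 145 for siSRC4 and PD30, since fewer genes were fitted, and POSTN was not fitted for GW8510 and siSRC4. The POSTN difference, GW8510 minus siSRC4, was 0.007 with median scaling (adjusted p = 0.982) and ran from -0.56 to -0.25 with single libraries left out. The cause was not tested. With the replicate block that difference had an adjusted p of 0.204, and the block changed no other call of the 7 genes, with 344 genes called (340 without it) for GW8510 and PD30, 65 (67) for GW8510 and siSRC2, 107 (101) for GW8510 and siSRC4, and 222 (226) for siSRC4 and PD30. Unknown depth limits what can be said of POSTN, whose signals were low.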
